A study of Mus musculus with 4 samples.

Results

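Colony-stimulating factors are the cytokines that keep myeloid cells alive and drive their growth, and the genes described here are 7: the ligand Csf1, the receptor of that ligand (Csf1r), the chains of the GM-CSF and IL-3 receptors (Csf2ra, Csf2rb, Csf2rb2 and Il3ra) and the G-CSF receptor (Csf3r). They were chosen by gene symbol in the platform annotation, with all probe sets that name 1 of these genes alone. This gave 14 probe sets of 45101 on the array, and 7 of the 18193 genes with a probe set. Csf1r had 3 probe sets, Csf1 had 4, Csf2ra and Csf2rb had 2 each, and Csf2rb2, Il3ra and Csf3r had 1 each.

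The study measured macrophages that were washed from the peritoneal cavity of mice after thioglycolate, an irritant that draws monocytes into the cavity. All 4 groups share that irritant and 18 hours on plastic slides, and were hybridised as 1 array each: wild type (WT) cells untreated, WT cells with interleukin-4 (IL-4), and cells labelled Dap12-KO untreated and with IL-4. DAP12, encoded by Tyrobp, is an adaptor protein that passes signals of partner receptors on through its ITAM motif, and the stated aim was to see how its loss acts on macrophage expression at rest and with IL-4. Strain, age, sex, the deleted part of the gene, the IL-4 dose and the number of mice behind each array are not given in the sources used here. With 1 array per group there is no replicate error, so a difference between 2 arrays stands here as a value without a test.

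CSF-1 acts through CSF1R, a receptor tyrosine kinase that marks the macrophage lineage and that macrophages need to survive, and DAP12 is known to take part in signals downstream of it. GM-CSF and IL-3 bind specific alpha chains (CSF2RA and IL3RA), which pair with the common beta chain encoded by Csf2rb. Mice carry a second, closely similar beta chain, Csf2rb2, that serves IL-3 alone, so signal from either beta chain gene can reach probes of the other. CSF3R is best known from neutrophils and their precursors but is also found on monocytes.

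Values are on the log2 scale, and counts of genes use 2-fold, a log2 difference of 1 in either direction. Counts rest on 1 main probe set per gene, the one with the highest mean, and on genes whose highest value reached 6.39, the median of all values and called the level floor here. That left 12767 genes, and all 7 genes passed on all 4 arrays. The array labelled Dap12-KO IL-4 was narrower than the others, with an interquartile range of 2.54 against 3.19 to 3.25. Its lower quartile was the highest of the 4 (5.47 against 5.29 to 5.31) and its upper quartile the lowest (8.01 against 8.50 to 8.56). Over all 12767 genes, the median difference was −0.40 for IL-4 under the Dap12-KO label and −0.39 for genotype with IL-4, while it was −0.03 for IL-4 in WT and 0.03 for genotype untreated. Differences of the main probe sets of the 7 genes that involve that array are therefore also given after cyclic loess, which removes level-dependent shifts between arrays. Other values from that array are as deposited unless a cyclic loess value stands beside them, and may carry its shift. Tyrobp read 14.39 and 14.13 on the WT arrays, untreated and with IL-4, and 14.03 and 13.27 on those labelled Dap12-KO, so its signal does not bear out the label. Where its probes lie relative to the deletion is not known, and directions between genotypes rest on the labels alone. The macrophage label was borne out by 9 of 9 measured macrophage markers above the floor on every array. For each gene below, fewer cells of a type and less RNA per cell cannot be told apart.

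Csf1, which encodes the CSF-1 ligand, and Csf3r were the genes of the family that reached 2-fold in any comparison, so their promoters are shown first. The sequences are the 250 bases before an annotated start in RefSeq (GRCm38.p6), 5′ to 3′ on the gene's strand, and 5 of the 7 genes had an entry, which Csf1r and Csf2rb did not. Capitals mark matches on either strand to the motifs searched: the STAT6 spacing (TTC and GAA, 4 bases apart), the STAT5 spacing TTCNNNGAA, the PU.1 core GAGGAA, the AP-1 motif TGANTCA and the NF-kB spacing (GGG and CC, 5 bases apart), where overlapping matches run together.
Csf1 (chr3:107760470-107760719, minus strand): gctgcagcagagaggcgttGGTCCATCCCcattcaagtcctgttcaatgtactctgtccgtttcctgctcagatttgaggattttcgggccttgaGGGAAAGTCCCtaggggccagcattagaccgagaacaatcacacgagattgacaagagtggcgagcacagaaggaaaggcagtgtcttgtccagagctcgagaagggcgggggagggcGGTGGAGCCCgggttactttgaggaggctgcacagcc
Csf3r (chr4:126024409-126024658, plus strand): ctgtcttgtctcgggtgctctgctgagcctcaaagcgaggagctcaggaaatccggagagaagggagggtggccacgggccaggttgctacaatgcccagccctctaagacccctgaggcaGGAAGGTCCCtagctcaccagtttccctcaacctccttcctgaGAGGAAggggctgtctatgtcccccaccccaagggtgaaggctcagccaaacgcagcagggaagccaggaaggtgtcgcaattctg
The Csf1 window held 4 matches to the NF-kB spacing, 2 of them overlapping and starting 155 and 154 bases before the start, and no match to the other motifs. The Csf3r window held 1 match to the NF-kB spacing, 129 bases before the start, and 1 PU.1 core, 86 bases before it. Of all 32851 promoter windows of this length, 45.8% held the NF-kB spacing and 23.3% the PU.1 core. The STAT6 spacing was in 5.85% of all windows, the STAT5 spacing in 7.02% and AP-1 in 6.75%. These are matches of letters, not shown binding sites.

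**Figure D1:**
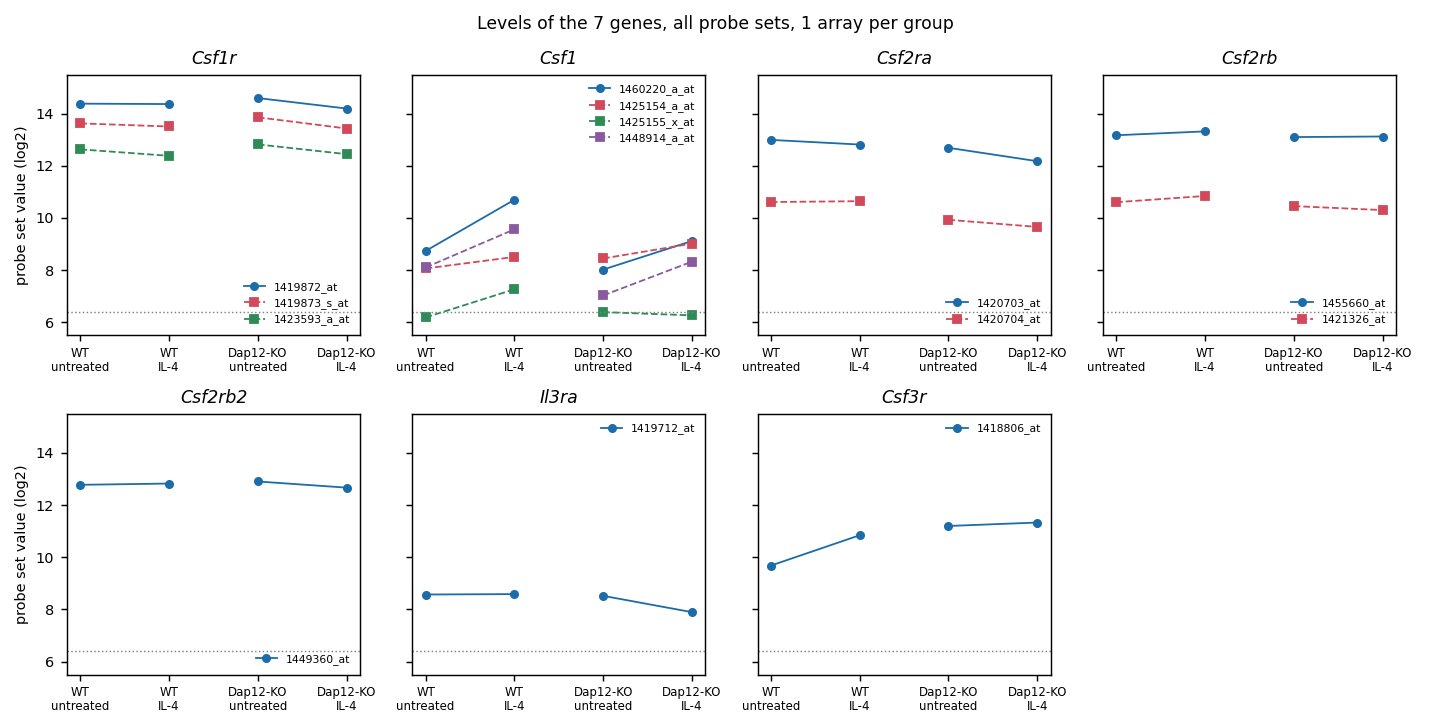
Probe set values (log2, y axis) of the 7 genes on the 4 arrays (x axis), 1 array per group, with circles and solid lines for the main probe set, squares and dashed lines for the others, lines joining untreated and IL-4 arrays of a genotype, and the dotted line at the level floor of 6.39. Csf1 and Csf3r span 2.68 and 1.65 log2 units over the arrays by their main probe sets, and the main probe sets of the other 5 genes span between 0.22 and 0.82.

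Csf1 was higher with IL-4 in both genotypes by its main probe set. Probe set 1460220_a_at read 8.73 on the WT untreated array, 10.70 on WT IL-4, 8.02 on the array labelled Dap12-KO untreated and 9.12 on that labelled Dap12-KO IL-4. In WT the log2 difference was 1.96, or 3.90-fold, and 40 of the 12767 genes, Csf1 among them, differed upward by as much. Under the Dap12-KO label the difference was 1.10, or 1.76 after cyclic loess.

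The other Csf1 probe sets did not all show the same pattern. Probe set 1448914_a_at read 8.10, 9.56, 7.03 and 8.32 in the same array order, and so followed the main probe set in each comparison. Its IL-4 differences were 1.46 in WT and 1.30 on the arrays labelled Dap12-KO, the latter 1.88 after cyclic loess. Probe set 1425154_a_at read 8.06, 8.50, 8.44 and 9.01, with IL-4 differences of 0.44 and 0.57, the latter 1.19 after cyclic loess. It was higher, not lower, on the arrays labelled Dap12-KO, by 0.38 untreated and 0.51 with IL-4. Probe set 1425155_x_at, whose suffix marks probes that may bind other transcripts, reached the floor on the WT IL-4 array alone, at 7.26, and read between 6.18 and 6.39 on the others. Its IL-4 differences were 1.08 in WT and −0.13 under the Dap12-KO label, the latter −0.22 after cyclic loess. The median over the 4 probe sets gave a Csf1 difference with IL-4 of 0.95 in WT and 1.15 on the arrays labelled Dap12-KO, so the WT count of 2-fold genes loses Csf1 by that rule. Whether the probe sets read different Csf1 transcripts was not tested.

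IL-4 was tested in both genotypes together, with limma across all 12767 genes, with genotype as a block and 1 residual degree of freedom. The only spread left in that fit is how far the IL-4 differences of the 2 genotypes disagree, pooled over all genes. These p-values measure that disagreement and no spread between replicates. It may be technical, since it takes in the array labelled Dap12-KO IL-4. Csf1 rose by 1.53 ± 0.42 (SE) with an adjusted p of 0.0219, and was higher with IL-4 in 2 of 2 genotypes. It was 1 of 69 genes that rose, 0.54% of all genes, while 1.1% fell. The other 6 genes of the family did not pass the test: Csf3r had a change of 0.65 ± 0.42 (adjusted p = 0.663), and the remaining changes lay between −0.35 and 0.08 with adjusted p from 0.795 to 0.941 in limma. The fit gave every gene the same standard error, so it ranks genes by the size of the change alone. Csf1 passed in that fit only: over the 7 alternatives its adjusted p in limma lay between 0.0574 and 0.923, with 0.279 after cyclic loess.

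Between genotypes, the main Csf1 probe set was lower on the arrays labelled Dap12-KO. The log2 difference was −0.71 untreated and −1.58 with IL-4, where both values rest on the labels that Tyrobp did not bear out. After cyclic loess these were −0.62 and −0.86, and the IL-4 value no longer reached 2-fold. Probe set 1448914_a_at gave −1.07 and −1.24, or −0.99 and −0.62 after cyclic loess. Probe set 1425154_a_at went the other way, by 0.38 and 0.51, or 0.47 and 1.18 after cyclic loess. The last of these passed 2-fold upward. The median over the 4 probe sets was −0.56 untreated and −0.36 with IL-4, with 2 of the 4 probe sets of opposite sign untreated. The direction between genotypes therefore depended on the probe set.

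Mesothelial cells and fibroblasts can also make Csf1. Of their 9 measured markers 3 passed the floor, Msln, Upk3b, Wt1, Col1a1, Lum and Pdgfra were below it on all 4 arrays, and the summed linear level of the list was 753, 732, 533 and 758 in the usual array order. Between the untreated arrays Col3a1 differed by −1.30 and Dcn by −1.08, the same side as Csf1, and Krt19 by 0.13. Between the IL-4 arrays the values were −0.08, −0.61 and 1.20 in that order. With IL-4 in WT they were 0.02, −0.17 and 0.10. Their part in the genotype values of Csf1 was not tested.

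Csf3r, which encodes the G-CSF receptor, was lowest on the WT untreated array and higher on each of the other 3. Its probe set 1418806_at read 9.68 on WT untreated, 10.84 on WT IL-4, 11.20 on the array labelled Dap12-KO untreated and 11.33 on that labelled Dap12-KO IL-4. The IL-4 difference in WT was 1.16, or 2.24-fold, and 99.1% of genes had a lower value. On the untreated arrays it was higher under the Dap12-KO label by 1.52, or 2.87-fold, where 111 of the 12767 genes, Csf3r included, differed upward by as much.

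With IL-4 the Csf3r values of the genotypes lay closer. The IL-4 difference on the arrays labelled Dap12-KO was 0.13, which is −1.03 relative to that in WT. The genotype difference with IL-4 was 0.49. After cyclic loess these became 0.75, −0.45 and 1.17, so the smaller IL-4 difference under the Dap12-KO label no longer reached 2-fold and the genotype difference with IL-4 did. The 2 IL-4 differences had the same sign with and without cyclic loess, and the difference between them was not tested.

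Neutrophils express Csf3r at high level, so their markers are given beside it. S100a8, a calcium-binding protein abundant in neutrophils, read 10.09, 9.20, 9.52 and 7.86 in the same array order, highest where Csf3r was lowest. The collagenase Mmp8 read 9.42, 9.42, 8.55 and 7.90. S100a9 and lactoferrin (Ltf) were below the floor on all 4 arrays, and 3, 2, 4 and 7 of the 9 measured markers reached it on the arrays in that order. The granule genes Camp and Elane read higher on the array labelled Dap12-KO IL-4 (8.20 and 7.27) than on the other 3, where they lay between 5.89 and 6.72. The summed linear level of the list was 2190, 1657, 1563 and 1334, highest on the WT untreated array, where Csf3r was lowest. The mean log2 value of the same list was 6.70, 6.54, 6.62 and 7.0, highest on the array labelled Dap12-KO IL-4, where Csf3r was highest. That array also had the highest lower quartile over all probe sets, and Ngp, Mpo and Cxcr2 read 6.53, 6.40 and 6.63 there. Its higher mean and its count of 7 markers thus depend partly on readings near background, while S100a8 and Mmp8 were lowest there. The part of neutrophils in the Csf3r differences was not tested.

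**Figure D2:**
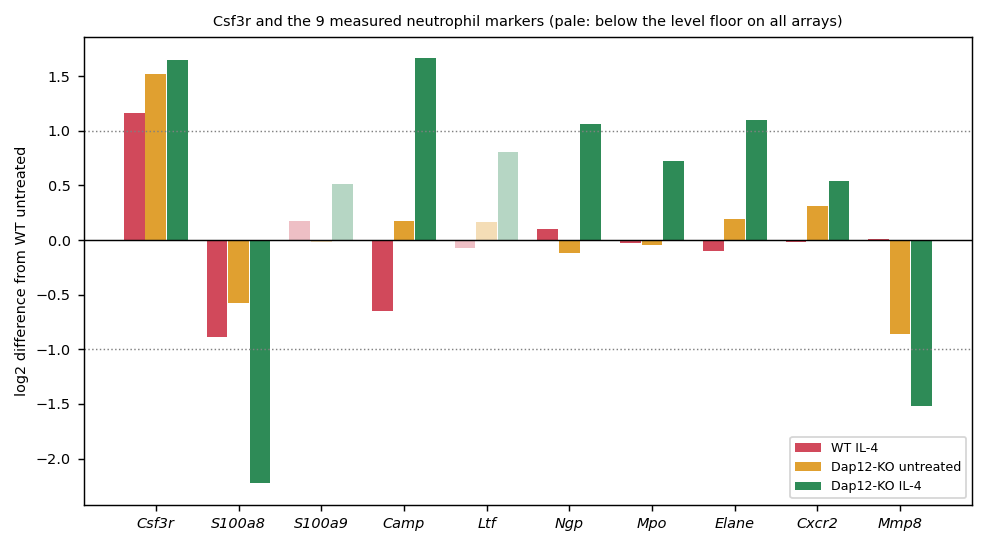
Log2 difference from the WT untreated array (y axis) of Csf3r and the 9 measured neutrophil markers (x axis) on the other 3 arrays, 1 array per bar, with dotted lines at 2-fold and pale bars for markers below the floor on all 4 arrays. Csf3r is higher on all 3 arrays, while S100a8 is lower on all 3. On the array labelled Dap12-KO IL-4, Mmp8 is lower too and the other markers are higher, in part from readings near background.

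Csf1r, the receptor of CSF-1, was nearly level across the arrays by its main probe set. Its main probe set 1419872_at read 14.38 on WT untreated, 14.37 on WT IL-4, 14.60 on the array labelled Dap12-KO untreated and 14.20 on that labelled Dap12-KO IL-4. The 3 probe sets gave the same order between the untreated arrays, with genotype differences of 0.21, 0.23 and 0.19. With IL-4 in WT they differed by −0.02, −0.12 and −0.25. On the arrays labelled Dap12-KO the IL-4 differences were −0.40, −0.43 and −0.37, close to the −0.40 of the median gene, and became −0.07, −0.02 and 0.12 after cyclic loess. Genotype differences with IL-4 were −0.17, −0.08 and 0.06 as deposited and 0.19, 0.37 and 0.61 after cyclic loess. No Csf1r difference between 2 arrays reached 2-fold.

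Csf2ra, the GM-CSF-binding alpha chain, was lower on the arrays labelled Dap12-KO by both probe sets. The main probe set 1420703_at read 12.99 on WT untreated, 12.81 on WT IL-4, 12.69 on the array labelled Dap12-KO untreated and 12.18 on that labelled Dap12-KO IL-4. Probe set 1420704_at read 10.61, 10.64, 9.93 and 9.65. The untreated genotype differences were −0.30 and −0.68, or −0.22 and −0.58 after cyclic loess. With IL-4 they were −0.64 and −0.99 as deposited and −0.10 and −0.28 after cyclic loess. All 4 pairs kept the same sign and none reached 2-fold. In WT, IL-4 differences were −0.18 and 0.03.

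Csf2rb, the beta chain shared by the GM-CSF, IL-3 and IL-5 receptors, differed little between arrays as deposited. Its main probe set 1455660_at read 13.17 and 13.32 in WT, untreated and with IL-4, and 13.10 and 13.12 under the Dap12-KO label. Its range was 0.22 as deposited and 0.47 after cyclic loess, where its IL-4 difference under the Dap12-KO label went from 0.02 to 0.47. Probe set 1421326_at read 10.60, 10.84, 10.45 and 10.30. Both were slightly higher with IL-4 in WT, by 0.15 and 0.24.

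Csf2rb2, the beta chain that serves IL-3 alone, read 12.78, 12.83, 12.90 and 12.67 by probe set 1449360_at. Its differences between 2 arrays lay between −0.24 and 0.13 as deposited. After cyclic loess they lay between 0.08 and 0.37, with IL-4 under the Dap12-KO label turning from −0.24 to 0.24 and genotype with IL-4 from −0.16 to 0.37. A further probe set, 1450200_s_at, names both beta chain genes and is not counted among the 14. It read 9.06, 9.21, 8.92 and 9.78, and was highest on the array labelled Dap12-KO IL-4. The 3 probe sets of either gene alone were highest on another array as deposited, and highest on that array after cyclic loess. Since these genes are close copies, the split of signal between them is uncertain.

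Il3ra, the IL-3-binding alpha chain, read 8.57, 8.59, 8.52 and 7.89 by probe set 1419712_at. The first 3 arrays lay between 8.52 and 8.59. The lower value on the array labelled Dap12-KO IL-4 gave differences of −0.63 for IL-4 and −0.69 for genotype. After cyclic loess these were −0.02 and −0.04, and the 4 values spanned 0.06.

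**Figure D3:**
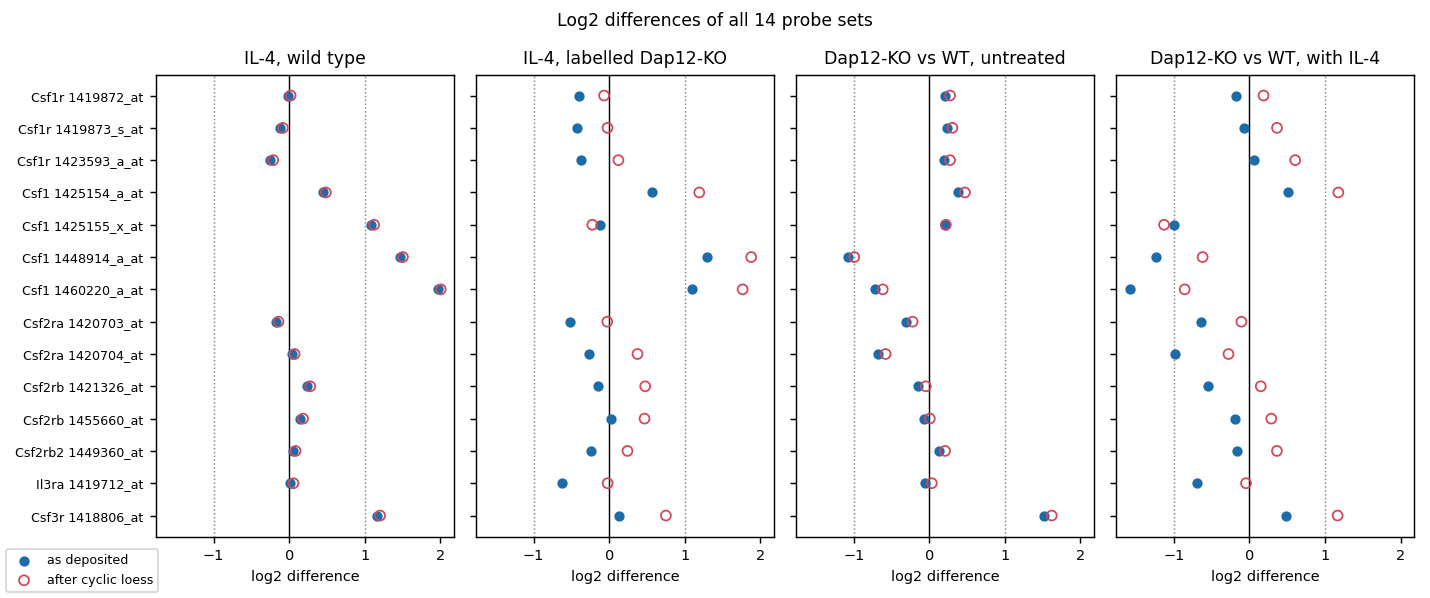
Log2 differences (x axis) of the 14 probe sets (y axis) in the 4 comparisons of 2 arrays, as deposited (filled) and after cyclic loess (open), with dotted lines at 2-fold. Cyclic loess leaves the 2 comparisons without the array labelled Dap12-KO IL-4 within 0.10 of the deposited values, and moves values of the other 2 by up to 0.73.

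Counted over the family, IL-4 in WT went with 2 of 7 genes at 2-fold, both higher (Csf1 and Csf3r), where 1.21% of all genes were higher and 1.25% lower. The family's median difference was 0.05 against −0.03 over all genes. On the arrays labelled Dap12-KO, 1 of 7 was higher with IL-4 (Csf1), where 8.04% of all genes were higher and 17.6% lower. The medians were −0.24 and −0.40. Between the untreated arrays 1 of 7 was higher under the Dap12-KO label (Csf3r), against 3.12% of all genes, and 0 were lower, against 3.41%. The medians there were −0.05 and 0.03. With IL-4, 1 of 7 was lower under the Dap12-KO label (Csf1), where 17.6% of all genes were lower and 10.9% higher, with medians of −0.20 and −0.39. After cyclic loess it was Csf3r that reached 2-fold there, upward, where 12.6% of genes were higher. For the difference of both IL-4 responses, 1 of 7 was lower (Csf3r) against 14.8% of all genes, and 0 were higher against 8.15%. After cyclic loess the shares of all genes higher and lower were 1.3% and 1.1% for IL-4 in WT, 9.79% and 5.91% for IL-4 under the Dap12-KO label, and 3.64% and 2.86% for genotype untreated, with the same genes of the family called. They were 12.6% and 5.33% for genotype with IL-4, and 8.9% and 5.58% for the difference of responses, where 0 of 7 were then called. At 3-fold in either direction, 0.721% of all genes were called for IL-4 in WT, where Csf1 was called, and 0 of 7 in the other comparisons. The shares there were 6.35% for IL-4 under the Dap12-KO label, 1.79% and 7.72% for genotype untreated and with IL-4, and 5.19% for the difference of responses. Where the background share is as high as in the comparisons with the array labelled Dap12-KO IL-4, a count of 1 in 7 is no result about the family.

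**Figure D4:**
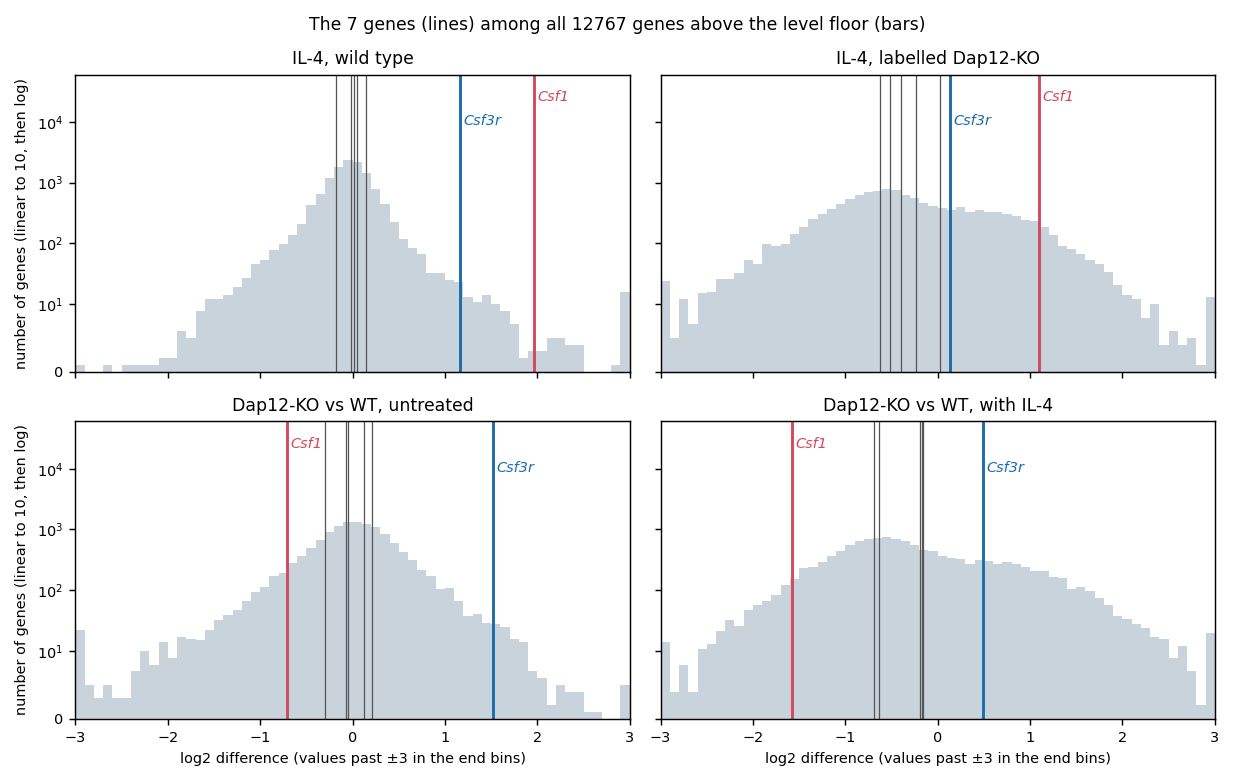
Number of genes (y axis, linear to 10 and logarithmic above) by log2 difference (x axis, in steps of 0.1) for the 12767 genes above the floor in the 4 comparisons of 2 arrays, with vertical lines at the main probe sets of the 7 genes. Csf1 and Csf3r lie at 1.96 and 1.16 in WT with IL-4, outside most of the bars, and the other 5 genes lie between −0.18 and 0.15.

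The genes whose profiles over the 4 arrays came closest to those of Csf1 and Csf3r were found by Euclidean distance between mean-centred values, over 12767 genes and 4 arrays. For Csf1 these were the matricellular protein gene Ccn1 (distance 0.35), the leukotriene B4 receptor gene Ltb4r1 (0.39) and the meiotic mismatch repair gene Msh5 (0.44). Ltb4r1 read 7.92, 10.30, 7.31 and 8.20 on the arrays in the usual order. For Csf3r they were the prostaglandin E2 receptor gene Ptger2 (0.33), the iron regulator Hfe (0.34) and Cnrip1 (0.40). Ptger2 read 8.87, 10.13, 10.43 and 10.19. With 4 arrays such likeness is a description of these arrays.

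Of the other ligands and chains of the family, none was above the floor on the WT untreated array. Csf3, Il3, Il5 and the IL-5 receptor chain Il5ra were below the floor on all 4 arrays, with values between 4.80 and 5.91. Csf2, which encodes GM-CSF, read 6.16, 6.49, 6.51 and 7.65. Il34, the second ligand of CSF1R, read 5.42, 5.23, 5.48 and 7.20. Both were highest on the array labelled Dap12-KO IL-4, whose lower quartile over all probe sets was also the highest, so how far they differ depends on readings near background. After cyclic loess their IL-4 differences on those arrays were 1.13 and 1.47.

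Among 27 genes of CSF-1 receptor signalling, 21 were measured here and all passed the floor. In WT with IL-4, 1 was higher and 0 lower at 2-fold, against 1.21% and 1.25% of all genes, and the list median was −0.07 against −0.03. The higher gene was Cblb, an E3 ubiquitin ligase that limits kinase receptor signalling, at 1.25, named after its value was seen. Between the untreated arrays, Src, a kinase recruited to CSF1R, differed by −1.16 in 1 probe set and −0.49 in the other. The adaptor Dok2 differed by −1.39, and Pik3cd, the catalytic PI3K delta subunit, by 1.11. Pik3cd rose with IL-4 in the limma fit over both genotypes (1.63, adjusted p = 0.0111), the 1 gene of 21 to do so, against 0.54% of all genes. Its IL-4 differences were 0.53 in WT and 2.73 under the Dap12-KO label, so WT did not reach 2-fold. The rise rests on 1 of its 5 probe sets above the floor, since another differed by −1.14 with IL-4 under the Dap12-KO label. On the arrays labelled Dap12-KO, IL-4 went with 1 gene of 21 higher and 5 lower, where 8.04% and 17.6% of all genes were. With cyclic loess 5 were higher and 0 lower, where 9.79% and 5.91% of all genes were. The phosphatase gene Inpp5d was among the 5 lower ones, at −1.39 as deposited and −0.75 after cyclic loess, while its other probe set differed by 0.75 as deposited.

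The JAK2-STAT5 list covers the route that the GM-CSF and IL-3 receptors use, with 14 of 14 genes above the floor. In WT with IL-4, 4 were higher and 0 lower, against 1.21% and 1.25% of all genes, and the median was 0.39 against −0.03. By limma over both genotypes 3 of 14 rose, against 0.54% of all genes, all inhibitors of cytokine receptor signalling: Cish by 3.15 (adjusted p = 1.34e-10), Socs2 by 3.07 and Socs1 by 1.90. After cyclic loess limma called 0 genes of the whole table, with 856 at an unadjusted p under 0.05. Socs2 differed by −2.29 untreated and −2.44 with IL-4 between genotypes by its main probe set, with a range of −2.29 to 0.20 over probe sets untreated. Below the floor were its reading on the array labelled Dap12-KO untreated (6.34) and that of Socs1 on WT untreated (6.16). The transcriptional repressor Bcl6 differed by −1.27 with IL-4 under the Dap12-KO label, in 1 of 2 probe sets, and by −0.66 after cyclic loess.

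Genes of the CSF-1 early response and of growth were at 2-fold with IL-4 in WT in 0 of 11 cases. Of all genes, 1.21% were higher and 1.25% lower there. Between the untreated arrays 3 of 11 were lower under the Dap12-KO label and 1 higher, against 3.41% and 3.12% of all genes, with a median of −0.74 against 0.03 over all genes. The transcription factor Myc differed by −1.37 and the urokinase gene Plau by −1.32, while the transcription factor Egr3 differed by 1.13 in 1 probe set and 0.06 in the other. With IL-4 the differences of Myc and Plau were −1.26 and −1.08, or −0.53 and −0.49 after cyclic loess. Ier3, an immediate early gene, was higher with IL-4 by 0.90 in WT and by 1.51 under the Dap12-KO label. In the limma fit 0 of 11 passed, where 0.54% of all genes rose and 1.1% fell.

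Of 12 myeloid transcription factors, among them Spi1, Cebpa and Runx1, known activators of these receptor genes, 11 were measured and 10 passed the floor. At 2-fold, 0 of 10 differed with IL-4 in WT, against 1.21% of all genes higher and 1.25% lower, with Irf8 at −0.98. Between the untreated arrays, Maf (2.19) and Fli1 (1.58) were higher under the Dap12-KO label and 1 gene was lower. Of all genes, 3.12% were higher and 3.41% lower there. Maf was higher by 2-fold in 4 of 6 probe sets. Fli1 fell in the limma fit (−1.96, adjusted p = 0.000633), from IL-4 differences of −0.23 in WT and −3.70 under the Dap12-KO label. The latter rests on a reading of 6.01, below the floor, on the array labelled Dap12-KO IL-4. Klf4 was higher with IL-4 under that label in both probe sets (1.53 and 1.46).

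Shedding of CSF1R from the cell surface is known to run through ADAM17, and 4 of 5 genes of that list passed the floor. In the 4 comparisons of 2 arrays, 0 of 4 reached 2-fold by the main probe set as deposited. The shares of all genes in these comparisons ran from 1.21% to 17.6% per direction. After cyclic loess Rhbdf2 was higher at 2-fold for IL-4 under the Dap12-KO label (1.11), where 9.79% of all genes were. Adam17 differed with IL-4 by −0.68 in WT and −0.70 under the Dap12-KO label, the latter −0.19 after cyclic loess. Rhbdf1, which helps ADAM17 mature, differed by −0.63 and −0.45, the latter −0.03 after cyclic loess. Of 8 genes known from alveolar macrophages, which depend on GM-CSF, 6 passed the floor. Of these, 0 differed by 2-fold with IL-4 in WT, where 1.21% of all genes were higher and 1.25% lower. Between the untreated arrays the fatty acid carrier Fabp4 was higher under the Dap12-KO label by 1.76, in 4 of 4 probe sets, and the integrin chain Itgax differed by −1.93. In the limma fit 0 of these 10 genes passed, where 0.54% of all genes rose and 1.1% fell.

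Markers of other cells that could carry these receptors were also read. Of 6 measured eosinophil markers 3 passed the floor, with Ccr3, Prg2 and Il5ra below it on all arrays. Alox15 read 7.59, 8.79, 8.98 and 10.07 in the usual array order, and so ranked the arrays as Csf3r did. Epx and Prg3 reached the floor on the array labelled Dap12-KO IL-4 alone, at 6.48 and 6.71. The summed linear level of that list was 379, 646, 715 and 1386. Alox15 had the highest value of the list on every array, so that sum largely repeats this gene. Of 9 mast cell and basophil markers 4 passed, with Kit, Fcer1a and Ms4a2 below the floor on all arrays. Of these 4, Cma1 (1.34), Cpa3 (0.93) and Tpsb2 (0.86) were higher on the untreated array labelled Dap12-KO, as Csf3r was, and Gata2 differed by −1.56. The list median there was 0.90 against 0.03 over all genes. With IL-4 in WT, where Csf3r was higher, that median was −0.28 against −0.03. The summed linear level of the list was 1370, 958, 1427 and 855 in the usual array order, lowest where Csf3r was highest. Dendritic cell markers passed in 5 of 7 cases with list means between 6.53 and 6.79, and T and NK cell markers in 2 of 5. B cell markers passed in 5 of 5, with list means of 8.02, 8.18, 8.80 and 8.45 in the usual array order. That list too was higher under the Dap12-KO label without IL-4. The part of any of these lists in the Csf3r differences was not tested.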

How the data were processed

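Values were deposited as 1 log2 value per probe set and array, made by the authors; the submitters' processing notes name RMA without a version. Biotin-labelled cRNA came from 2 amplification cycles on 1-colour Affymetrix arrays, per the labels' protocols, which favours 3' ends. Probe sets were named through GEO's platform annotation, with symbols updated by Entrez identifier to RefSeq (GRCm38.p6; 34741 of 34945 matched); 932 naming several genes and 9160 naming none were left out of gene counts. No detection call or depth stands behind a value, and the number of arrays limits precision. Cyclic loess used 3 iterations.

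The IL-4 effect was tested with limma 3.58.1 (R 4.3.3; Benjamini-Hochberg; adjusted p under 0.05), a fit also tested on simulated data. That simulation gave every gene the same noise and no shift between arrays, so it does not cover the narrower array here. Genotype was not tested, since no label says whether its 2 arrays per genotype share mice. Further steps ran in Python 3.11.15, numpy 2.4.6, pandas 2.3.3 and matplotlib 3.10.9. The genes and lists were chosen with earlier results of these data known, and motifs after values were seen. Named were the 7 genes, Tyrobp, the 3 nearest profiles of genes spanning 1 log2 unit, and up to 4 genes of each list with the largest differences; list members below the floor, and Cblb, were named beyond that rule. List genes without a probe set naming 1 gene were not analysed here. Alternatives were 3 other scalings (cyclic loess, quantile normalization, median centring), no level floor, the median over probe sets, 3-fold, an intensity trend and no genotype term.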

Additional observations from a re-analysis of the deposited data

Results flagged for a closer look

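Csf2rb2 and Il3ra had IL-4 differences of opposite sign in the 2 genotypes: 0.05 in WT and −0.24 under the Dap12-KO label for Csf2rb2, and 0.02 and −0.63 for Il3ra. Csf1r and Csf2rb2 had genotype differences of opposite sign in the 2 treatments: 0.21 untreated and −0.17 with IL-4 for Csf1r, and 0.13 and −0.16 for Csf2rb2. None of these values reached 2-fold, each sign comes from 1 pair of arrays, and the differences between genotypes or treatments were not tested. After cyclic loess the signs of Csf1r and Csf2rb2 no longer opposed each other, at 0.27 and 0.19 for the genotype differences of Csf1r.

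Probe set 1450200_s_at, which names both Csf2rb and Csf2rb2 and enters no comparison, read 9.78 on the array labelled Dap12-KO IL-4 against 9.06 on WT untreated. Its IL-4 difference under the Dap12-KO label was 0.85, or 1.52 after cyclic loess.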

How the results depend on the processing

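The limma fit already holds genotype as a block, and the labels give no replicate numbers for any other pairing; without the genotype term Csf1 had an adjusted p of 0.923 in limma. Counts of the 7 genes at 2-fold moved as follows, and the cause was not tested. At 3-fold, the count went from 2 to 1 for IL-4 in WT (Csf1) and from 1 to 0 in each of the other 4 comparisons, as fewer genes pass a stricter threshold. With the median over probe sets it was 1 for IL-4 in WT (Csf3r) and 0 for genotype with IL-4. With median centring it was 0 for IL-4 under the Dap12-KO label and 2 for the difference of responses (Csf1 and Csf3r, both lower). With cyclic loess and with quantile normalization it was 0 for the difference of responses, and the 1 gene for genotype with IL-4 was Csf3r, higher, in place of Csf1, lower. In limma the count went from 1 to 0 under all 7 alternatives. No level floor left the 5 counts of 2-fold genes as they were. Leaving out a genotype or an array leaves limma no residual degrees of freedom, so the per-genotype differences stand as values.

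Of 175 values of single genes under an alternative, 11 moved by over 1.5-fold, and 0 that had reached 2-fold changed sign. Of 35 differences, 13 changed sign under at least 1 alternative, each of them under 2-fold as deposited. For Csf1 the difference of responses went from −0.87 to 0.19 with the median over probe sets. It was −0.24 with cyclic loess and −0.30 with quantile normalization. Il34, Csf2 and Csf1 probe set 1425155_x_at were above the level floor on some arrays only. The same held for Fli1, Socs1, Socs2, Krt19, Camp, Elane, Col3a1 and other list genes, so their differences rest partly on readings below it.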
